A study of Drosophila melanogaster with 3 samples.

Results

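The peaks described here are the Scalloped peaks whose summit lay inside an annotated exon and more than 500 bp from every transcription start site (TSS). They numbered 381 of the 10553 peaks in the list thresholded on the irreproducible discovery rate (IDR), a filter that keeps peaks ranked alike in replicates, or 3.61% (95% exact Clopper-Pearson interval 3.26 to 3.98). Summits were placed on Ensembl release 115 exons (BDGP6.54, the coordinates of dm6), with transposable elements left out and with arms 2L, 2R, 3L, 3R, 4 and X used. A summit went to the first of 4 classes that applied: 102 lay in 5' UTRs, 33 in coding sequence, 139 in 3' UTRs and 107 in other exons, all of them in noncoding RNA genes. The rule used the position of the summit and took no signal value of its own, but the IDR list it starts from is already selected on rank and on repetition in replicates. Base composition also differs between kinds of exon, so shares of the main motif, CATTCC, are given by class beside the same class of sequence. Shares of the other motifs are given beside all exonic windows together.

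The data are chromatin immunoprecipitation with sequencing (ChIP-seq) of Scalloped (sd) fused at its C terminus to eGFP, precipitated through the GFP tag. Material was whole *Drosophila melanogaster* embryos of mixed sex, collected from 4 to 20 h, from a single transgenic line, and the 3 samples are biological replicates of 1 group, each from its own biosample. There was no second condition, and the lists were called against a single control alignment that was not analysed here. Because whole embryos were pooled over this range of stages, binding in few cells and weak binding in many cells cannot be told apart. No read totals came with the lists, and the depth is unknown.

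Scalloped is the fly TEA-domain factor. It recruits Yorkie, the coactivator that the Hippo kinase cascade restrains, to growth and survival genes, and it pairs with Vestigial in wing and muscle cells. TEA-domain factors recognise a short core, CATTCC, and most mapped sites of such factors lie at promoters and in introns or intergenic enhancers. Exonic sequence also has to encode a protein or form part of a transcript, and an exon of 1 isoform can be intron in another.

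The sequences below show the core site nearest to the summit for strong members of each class that hold one, not the strongest throughout, plus 3 coding members on which later results turn. The class named is that of the summit. Each is 30 bases of dm6 (NCBI's Release 6 sequence), written 5' to 3' on the strand on which the core reads as shown, with the core in capitals.
ex, 5' UTR, chr2L:431827-431856, minus strand: gcgatcgggtcgCATTCCagcgtcgcacat
CG44838, 5' UTR, chr3L:9461868-9461897, plus strand: aacatttatgtgCATTCCaggtggtcctgc
not, coding, chr3L:18621416-18621445, minus strand: acagctacgataCATTCCgggtcatcgacg
raw, coding, chr2L:8734532-8734561, plus strand: gcgggcgtatagCATTCCggcgggggtgag
Rassf, coding, chr3R:23117370-23117399, plus strand: tcgcagcgcaaaCATTCCggatgccaatcg
Nrg, coding, chrX:8532293-8532322, plus strand: catcgatcttgcCATTCCtttccccttcac
scrib, coding, chr3R:26567011-26567040, plus strand: atcgttggtgtaAATTCCaagcaaccagtg
CG8188, 3' UTR, chrX:17699248-17699277, minus strand: gagacgggccaaCATTCCaatccgatcgga
aqz, 3' UTR, chr3R:8814418-8814447, minus strand: taaccccctccaCATTCCagacgattcgaa
scf, 3' UTR, chr3L:1300206-1300235, plus strand: cagctgcgagaaCATTCCaaagagagtgtg
lncRNA:CR43334, noncoding exon, chr3L:642887-642916, plus strand: ttgggtaaacagCATTCCaagcataccagc
lncRNA:CR43493, noncoding exon, chrX:22488098-22488127, plus strand: ctaaattcttctCATTCCtttgcttcttcc
lncRNA:CR44581, noncoding exon, chr2L:10802129-10802158, minus strand: gggtcccaccaaCATTCCtggcataatttc
The scrib window carries AATTCC, which differs from the core in its first base, and held no CATTCC. In Nrg the site shown lay in the intron beside the coding exon that held the summit, 49.5 bp from it, and in CG44838 it lay in the intron beside the 5' UTR exon, 26.5 bp from the summit, whereas the sites of not, raw and Rassf lay 9.50, 6.50 and 8.50 bp from summits inside the same coding sequence.

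Scalloped summits were spread very unevenly over the 4 kinds of exon. In the IDR list there were 97.8 summits per Mb of 5' UTR and 100.3 per Mb of noncoding exon, against 90.9 per Mb of intron and 36.8 per Mb of intergenic sequence, all counted more than 500 bp from a TSS. The 3' UTRs held 23.5 per Mb, and coding sequence held 1.79 per Mb. Coding sequence made up 18.4 Mb of the 26.4 Mb of exonic bases at that distance, and exons as a whole held 14.4 per Mb, against 68.8 per Mb in introns and intergenic sequence together.

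These densities repeated in the replicates, taken as the 10553 strongest peaks of each replicate's list. The 5' UTR held 97.8, 98.7 and 97.8 summits per Mb in replicates 1, 2 and 3 (mean 98.1 ± 0.554, SD, n = 3), and coding sequence held 2.01, 1.79 and 1.85 per Mb (mean 1.88 ± 0.113). Noncoding exons averaged 96.9 ± 5.16 and 3' UTRs 22.0 ± 2.11 per Mb, beside 89.2 ± 4.78 in introns and 36.0 ± 1.07 in intergenic sequence. Both the 5' UTR and the noncoding exon value exceeded the intron value within each of the 3 replicates. For noncoding exons these were 100.3, 90.9 and 99.4 per Mb in replicates 1, 2 and 3, against 93.4, 84.0 and 90.3 in introns. A single gene, lncRNA:CR43334, held 10 of the 107 noncoding members of the IDR list. The density without that gene was not computed, so the small excess over introns is not read as a trait of noncoding exons at large. Exons as a whole had 0.210, 0.208 and 0.206 times the density of the other distal bases, lower in 3 of 3 replicates (exact sign-flip permutation test, two-sided p = 0.25, the smallest that 3 replicates allow). Since 3 replicates cannot reach a lower p in that test, the replicate spread is given throughout. It measures how far the replicates differ and leaves out the counting error of small classes.

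**Figure D1:**
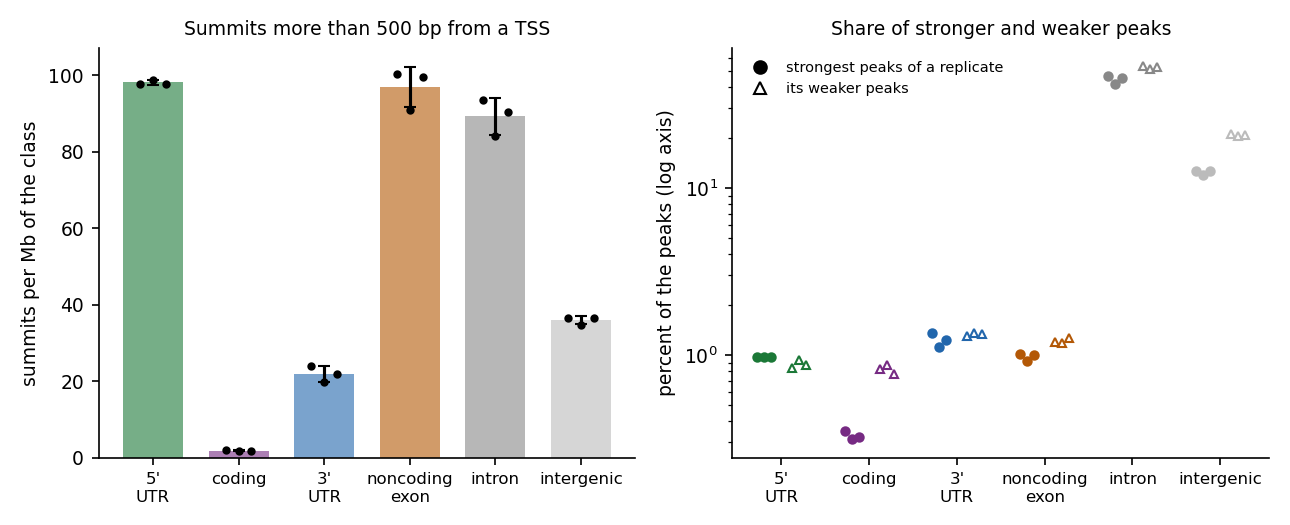
Left, summits per Mb of each annotation class more than 500 bp from a TSS (bars, mean of 3 replicates; error bars, SD; points, replicates). Right, percent of the 10553 strongest peaks (filled circles) and of the 19447 weaker peaks (open triangles) of each replicate that fell in the class, on a log axis. 5' UTRs and noncoding exons sit beside introns, coding sequence lies near the axis at 1.88 per Mb, and coding sequence is the exonic class with the widest gap between strong and weak peaks.

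Distance from a TSS moved with these densities and differs between the classes. From 501 to 1000 bp of a TSS exons held 26.6 summits per Mb, from 1001 to 2000 bp 16.5, from 2001 to 5000 bp 9.27 and beyond 5000 bp 4.39. Leaving out coding sequence the same steps were 81.8, 54.4, 25.5 and 12.3 per Mb, and those of introns were 177.6, 147.4, 108.5 and 55.2 per Mb. At each distance, then, the density pooled over 5' UTRs, 3' UTRs and noncoding exons was below that in introns. Most of the pooled bases were 3' UTR, with 5.93 Mb against 1.04 Mb of 5' UTR and 1.07 Mb of noncoding exon. The pooled classes were not split by distance. Whether 5' UTRs or noncoding exons alone fell below introns at the same distance was not tested. The median distance to a TSS was 747 bp for 5' UTR members, 944 bp for noncoding exons, 1331 bp for coding members and 1633 bp for 3' UTR members, against 2874 bp for intronic summits. Altogether 165 members (43.3%) lay within 1000 bp of a TSS and 22 beyond 5000 bp. On either side of the 500 bp limit, the 18 members at 501 to 525 bp had a median signal of 1.24 times the IDR median, and the 11 exonic summits at 476 to 500 bp, which are not members, had 0.840 times.

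Each peak carried the authors' signal value, which compares peaks within a list only, so it is given here as a multiple of the median of the list. Members as a group had a median of 0.982 times the IDR median. By class the median was 1.06 in noncoding exons, 1.03 in 5' UTRs, 0.954 in 3' UTRs and 0.824 in coding sequence, with 0.967 in introns and 0.904 in intergenic sequence. In the replicates the members' median was 0.961, 0.945 and 0.959 times that of the list, below 1 in 3 of 3, and the other distal summits had 0.962, 0.934 and 0.952. Members ran from 0.558 to 26.8 times the median, 34 of them ranked among the top 1000 IDR peaks and 4 among the top 100. That is 3.40% of the top 1000 and 4.00% of the top 100, near their 3.61% of the whole list. Of those 34, 15 were in noncoding exons, 10 in 3' UTRs, 8 in 5' UTRs and 1, scrib, in coding sequence. These were 14.0%, 7.19%, 7.84% and 3.03% of their classes. The top 1000 took in 8.23% of intronic summits, 6.26% of intergenic ones and 12.1% of those within 500 bp of a TSS.

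**Figure D2:**
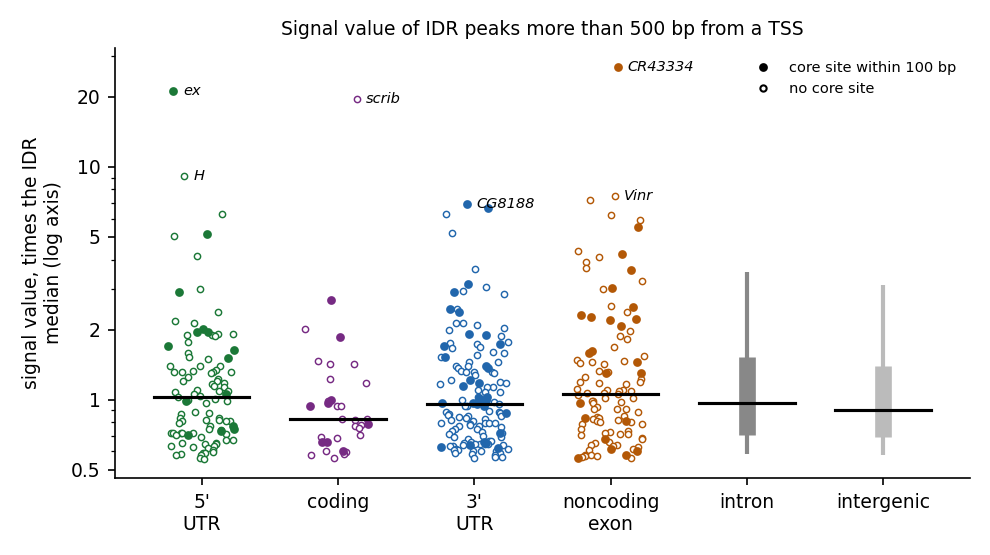
Signal value of each of the 381 members as a multiple of the IDR median (log axis), by class; filled points have a CATTCC within 100 bp, open points none, and black lines are medians. For intron and intergenic IDR peaks the thick bar spans the quartiles and the thin bar the 5th to 95th percentile. The leading members of ex, scrib and lncRNA:CR43334 stand at 21.3, 19.6 and 26.8 times the median, far above the rest of their classes, whose medians lie between 0.824 and 1.06.

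The strongest 5' UTR member lay in ex, which encodes Expanded, an apical FERM-domain protein that activates the Hippo cascade and is itself a described target of Yorkie. Its summit had 21.7, 18.3 and 20.6 times the list median in replicates 1, 2 and 3, ranking 7, 9 and 7. In H, encoding the Notch antagonist Hairless, the values were 8.40, 8.52 and 9.23. Next was spen, a nuclear RNA-binding protein, with 6.39, 5.01 and 6.30, followed by lbk with 5.02, 4.16 and 5.33 and CG12581 with 4.35, 3.42 and 4.03. The remaining genes among the 8 strongest were shn, a zinc-finger factor of Dpp signalling, sqa, a kinase of the myosin light chain, and wts, the Hippo-pathway kinase that phosphorylates Yorkie. These stood lower, at 1.93 to 3.24 times the median over the replicates. The sqa summit was the only one of the 8 with 3 CATTCC sites, the nearest 14.5 bp away, while H, spen, shn and wts held AATTCC and no CATTCC.

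Among coding members 1 stood far above the rest. The summit in scrib, which encodes the Scribble scaffold of the basolateral membrane and septate junctions, had 17.6, 21.2 and 18.4 times the median in replicates 1, 2 and 3, ranking 12, 5 and 8. It lay in coding sequence of all 17 transcripts that cover it, 1621 bp from the nearest TSS and 69 bp from the exon edge. The next was not, a ubiquitin protease of the SAGA complex, with 2.79, 2.10 and 2.65 times, ahead of the homeobox gene otp with 1.61, 2.21 and 2.02 and of raw, a negative regulator of JNK signalling, with 1.56, 1.69 and 1.92. For sut1, a sugar transporter, the replicates gave 1.59, 0.828 and 1.49, so its rank ran between 2635 and 6757. The others among the 8 strongest, btsz, Tsp42En and CG10357, had between 0.965 and 1.66 times the median.

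The 3' UTR members had no summit as strong as ex or scrib. CG8188 led with 7.43, 6.06 and 6.30 times the median in replicates 1, 2 and 3, and aqz followed with 7.0, 6.22 and 6.02. Plzf, a zinc-finger protein, had 7.59, 4.25 and 5.72, a spread wide enough to place it above or below both depending on the replicate. Tctp, the fly homologue of translationally controlled tumour protein, had 4.92, 4.49 and 5.28. CG7778, scf, lwr, which encodes the SUMO-conjugating enzyme, and CG14598 had between 2.53 and 4.08. For 65 of the 139 3' UTR members (46.8%) the nearest TSS belonged to another gene, against 13 of 102 in 5' UTRs, 10 of 33 in coding sequence and 36 of 107 in noncoding exons. At CG8188 that neighbour was chas, 574 bp away, and at aqz it was CG9837, 876 bp away. The 3' UTR members lay a median of 393 bp from the end of the transcript. Neither that distance nor the share of nearest TSSs was computed over all bases of a class, so neither is read as a trait of these peaks.

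Noncoding exons held the strongest member of all. In lncRNA:CR43334, the noncoding gene from which the bantam microRNA is made, the summit had 29.4, 20.5 and 26.0 times the median in replicates 1, 2 and 3. Second was lncRNA:Vinr with 6.78, 8.80 and 6.45, ahead of lncRNA:CR45128 with 6.09, 7.51 and 7.10. Of the 107 noncoding members 35 also lay inside a protein-coding gene, 33 of them on the strand opposite to it, and 72 lay outside coding genes. The same shares over all noncoding exon bases were not computed. Those inside included lncRNA:CR45128 in the transcription factor gene Adf1, lncRNA:CR45793 in Hph, the fly HIF prolyl hydroxylase, and lncRNA:CR46110 in kay, the fly Fos. These ranked 116, 167 and 195 in the IDR list. ChIP-seq does not read strand, so a summit on such a locus belongs equally to the noncoding exon and to the coding gene around it.

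**Figure D3:**
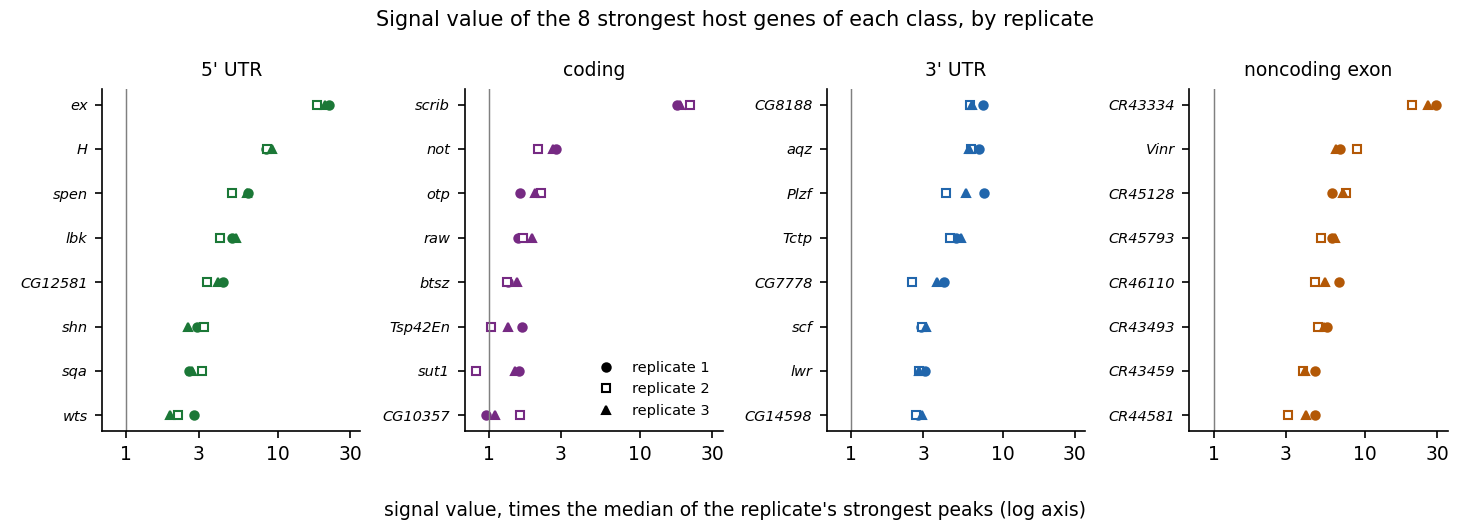
Signal value of the members of the 8 strongest host genes of each class in replicate 1 (filled circle), 2 (open square) and 3 (filled triangle), as a multiple of the median of the 10553 strongest peaks of that replicate (log axis; grey line at 1). The leading members of the 5' UTR, coding and noncoding classes stand apart in every replicate, whereas sut1 and CG10357 fall on both sides of 1.

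The members fell in 318 host genes, of which 273 held 1, 36 held 2 and 9 held 3 or more. Those 9 held 36 members. lncRNA:CR43334 alone held 10, running from 26.8 to 0.604 times the IDR median, 5 of which had CATTCC. lncRNA:CR43650 and CG1888 held 4 each. lncRNA:CR43459, lncRNA:CR42839, mthl1, corto, by, which encodes the fly tensin, and spen held 3 each. Neighbouring summits are not independent: 86 members (22.6%) shared their peak interval with another IDR summit, compared with 17.3% of the other distal summits and 16.7% of all IDR summits. The closest neighbours were 199 bp apart. The interval of 15 members also held a summit within 500 bp of a TSS, among them those of ex and of lncRNA:CR43334. The interval itself reached within 500 bp of a TSS for 100 members (26.2%), 44 of 102 in 5' UTRs and 40 of 107 in noncoding exons. Several strong summits lay just past the limit, with ex at 550 bp, H at 559 bp, lncRNA:Vinr at 517 bp and lncRNA:CR45793 at 503 bp, while spen lay at 3049 bp. By arm the density was 18.1 members per Mb of distal exonic bases on 2R, 15.8 on 3L, 13.6 on 3R, 12.9 on X and 12.7 on 2L, and chromosome 4 held 1 member.

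Where transcripts differed, exonic summits were denser in the parts that are intron in another transcript, except in 3' UTRs of the IDR list. A position counted as such when any transcript, of the same or another gene, had an intron there. This held for 125 of the 381 members (32.8%, 28.1 to 37.8), against 15.6% of distal exonic bases. Such bases held 30.3 summits per Mb, beside 11.5 per Mb in bases exonic in every transcript, and the ratio in replicates 1, 2 and 3 was 2.81, 2.99 and 2.90 (exact sign-flip permutation test, two-sided p = 0.25, the smallest possible). The makeup of the bases takes part in this ratio, since coding sequence makes up most of the bases that are never intron. Within the 5' UTR the densities were 136.4 and 73.5 per Mb, with ratios of 2.01, 1.68 and 2.01, and 55 of the 102 members were affected. Within noncoding exons they were 116.5 and 92.9 per Mb, with ratios of 1.25, 1.41 and 1.43. In 3' UTRs the densities were 22.9 and 23.6 per Mb, with ratios of 1.08, 1.19 and 1.11 in the replicates, on the other side of 1 from the IDR list's 0.972. Coding sequence had 7 such members, with 2.99 and 1.62 per Mb and ratios of 2.54, 2.98 and 1.47. The Mef2, CycE, sty, S, pyd and baz members, all in 5' UTRs, were of this kind: the Mef2 summit was exonic in 1 of 3 covering transcripts and the CycE summit in 1 of 5.

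Coding summits lay close to the edge of their exon. The median distance to the nearest exon edge was 72 bp for the 33 coding members, against 222 bp for distal coding bases, and 23 of them (69.7%, 51.3 to 84.4) were within 100 bp, against 30.5% of the bases. This corresponds to 4.10 summits per Mb within 100 bp of an edge and 0.781 per Mb deeper inside. Among the strongest peaks of replicates 1, 2 and 3 the share within 100 bp was 64.9%, 63.6% and 67.6% (mean 65.4 ± 2.05), above the bases in 3 of 3 (exact sign-flip permutation test, two-sided p = 0.25, the smallest possible). Among the weaker coding summits, of which each replicate had 149 to 169, it was 52.8%, 62.1% and 57.7%. The sequence beyond the nearest edge was intron for all 33, and the same share over all distal coding bases was not computed. The median was 186 bp against 170 bp for the bases in 5' UTRs and 426 bp against 456 bp in 3' UTRs. For noncoding members the median was 514 bp against 422 bp, and 20 of 107 (18.7%, 11.8 to 27.4) were within 200 bp of an edge, against 32.5% of the bases. Within 100 bp the replicates had 13.1%, 17.5% and 12.3%, against 18.9% of the bases. Members of 1 gene are not independent here: lncRNA:CR43334 alone held 10 of the 107, all 971 to 6819 bp from an edge. The values without such clusters were not computed.

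Coding members also changed class between replicates more often than the others. Of the 33 coding members 8 had an interval that was wholly exonic, whereas 25 had intervals that ran past an exon edge. In 5' UTRs, 3' UTRs and noncoding exons 47 of 102, 92 of 139 and 77 of 107 intervals were wholly exonic. The scatter of matched replicate summits around the IDR summit was much the same in every class, with a median of 11.0 bp for coding and noncoding members and slightly less in the UTRs. For the 31 coding members matched in all 3 replicates, the 3 replicate summits were all in coding sequence for 19 (61.3%). The same measure gave 92.0% in 5' UTRs, 94.4% in 3' UTRs and 99.0% in noncoding exons. Not every change of class led into an intron. Of the 97 matched replicate summits of coding members, 83 lay in coding sequence and 7 in introns. Still exonic and more than 500 bp from a TSS were 90 (92.8%), against 94.7% in 5' UTRs, 97.8% in 3' UTRs and 96.2% in noncoding exons. Whether the protein contacts the exon or the adjoining intron at such members was not tested. Most of their intervals, 25 of 33, took in both, and the chromatin had been sonicated to 200 to 800 bp.

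**Figure D4:**
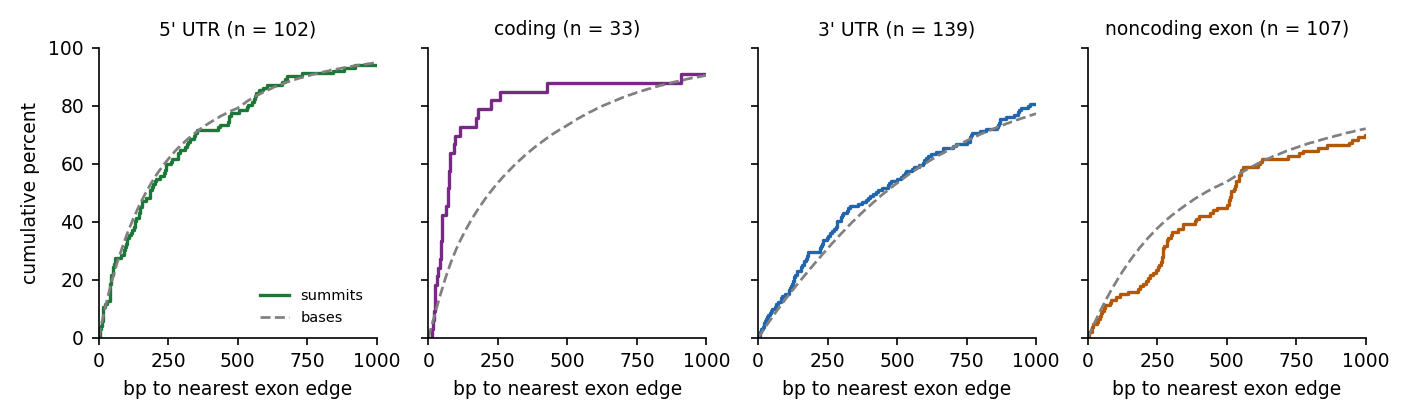
Cumulative percent of members (coloured steps) and of distal bases of the same class (grey dashes) by distance in bp to the nearest exon edge, cut at 1000 bp. The coding steps rise well ahead of the bases, reaching 69.7% at 100 bp against 30.5%, the 5' UTR and 3' UTR steps run close to theirs, and the noncoding steps lag at 18.7% by 200 bp against 32.5%.

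Coding sequence was also the exonic class that thinned out most among strong peaks. It held 0.351%, 0.313% and 0.322% of the 10553 strongest peaks of replicates 1, 2 and 3, against 0.818%, 0.869% and 0.766% of the weaker 19447 of the same lists. The share among strong peaks was lower in 3 of 3 replicates, at 0.403 ± 0.0377 times that among weak ones (exact sign-flip permutation test, two-sided p = 0.25, the smallest possible). For all exonic classes together the ratio was 0.831 ± 0.0619. In the list called on the pooled replicates, successive bands of 5000 peaks by rank held 9, 21, 29, 23, 36 and 51 coding summits. The 5' UTR counts went the other way, 50, 47, 47, 39, 40 and 38, and the bands also held fewer summits near a TSS, 2126 in the first and 804 in the last.

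The CATTCC core was present within 100 bp of 79 of the 381 summits (20.7%, 16.8 to 25.2), searched on both strands, against 22.4% of the intronic and intergenic summits and 19.8% of all IDR peaks. The members' share thus stood near that of all peaks. It was 2.17 times the share of 9.54% over all windows of the same size centred on distal exonic sequence, and 34 of 545 windows (6.24%, 4.36 to 8.61) 1000 to 1200 bp from the members held the core. Of the 131735 exonic windows 91763 were coding, against 33 of the 381 members, so windows and members differ in makeup. In replicates 1, 2 and 3 the members' share was 20.6%, 19.9% and 21.2%, against 23.0%, 21.3% and 21.9% of the other distal summits. The difference of -1.47 ± 0.880 percentage points was negative in 3 of 3 replicates (exact sign-flip permutation test, two-sided p = 0.25, the smallest possible), and it turned positive among IDR peaks above the median signal, at 0.409, and for the longer form of the site, with A or G before the core and A or T after it, at 0.639. That longer form was found at 45 members (11.8%), against 2.51% of the mostly coding exonic windows, or 4.70 times as often, and 1.47% of flanks. It was found at 10.6% of the other distal summits, 3.88 times their windows, and at 9.24% of all IDR peaks.

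By class the core was found at 9 of 33 coding summits (27.3%, 13.3 to 45.5), 24 of 107 in noncoding exons (22.4%), 31 of 139 in 3' UTRs (22.3%) and 15 of 102 in 5' UTRs (14.7%, 8.47 to 23.1). The matching windows of each class gave 10.3%, 10.2%, 7.61% and 7.0%, so each class exceeded its own sequence by 2.10 to 2.93 times. The intervals of the 4 classes overlap. Among the 79 the nearest core lay within 25 bp of the summit in 38 and within 50 bp in 61, and in 71 it lay in the same class of exon as the summit. In 6 it lay in an intron, and 5 of those 6 had their summit in a 5' UTR. The core was found at 50 of the 190 stronger members (26.3%) and at 29 of the 191 weaker (15.2%). This split was not made for other peaks, so it is not read as a trait of exonic ones. Among peaks above the median signal, members differed from the other distal summits by a mean of 0.409 percentage points over the replicates.

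**Figure D5:**
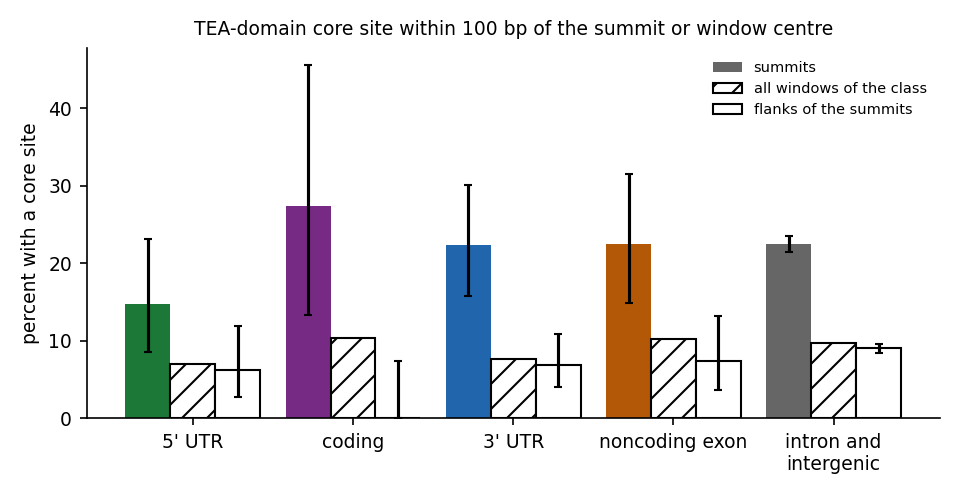
Percent of windows of 201 bp with the CATTCC core, by class, for summits (coloured; error bars, 95% exact interval), for all windows of the class (hatched) and for flanks 1000 to 1200 bp from the summits (white; error bars, 95% exact interval). In each exonic class the summits exceed their windows, by 2.10 to 2.93 times.

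Other short motifs were searched in the same windows on both strands. Those exonic windows were mostly coding, unlike the members, so the members' flanks are given as well. AATTCC, the core with its first base changed, was found at 94 members (24.7%), against 9.52% of exonic windows, 11.4% of flanks and 23.5% of all IDR peaks. Neither form was found at 222 members. The GATA-factor site, AGATAA or TGATAA, was found at 31.5% of members, beside 16.4% of exonic windows, 22.2% of flanks and 27.8% of all IDR peaks. GAGAG, bound by GAGA factor, was found at 31.8% against 22.2% of windows, 21.3% of flanks and 29.3% of all IDR peaks. The AP-1 site, TGACTCA or TGAGTCA, was found at 4.20% against 1.15% of windows, 1.83% of flanks and 2.85% of all IDR peaks. The members' shares of these motifs were thus near those of all peaks. A further motif searched, TATCGATA, was not: it was found at 2 members (0.525%), against 2.10% of all IDR peaks, which include those near a TSS. It was found at 0.326% of the other distal summits, 0.266% of exonic windows and 0.183% of flanks. CTACTC, a shuffled form of the core used as a control, was found at 4.20% of members, against 5.34% of windows and 3.67% of flanks. Base composition moved with part of this: the median GC content in 3' UTRs was 40.8% at summits and 34.8% over all windows, with smaller differences in 5' UTRs (44.8% and 45.3%) and noncoding exons (43.3% and 42.3%). Its part in the motif shares was not tested.

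Members were found again in the replicates about as often as other peaks. A summit within 100 bp was present in all 3 replicate lists for 358 of 381 (94.0%, 91.1 to 96.1), against 92.6% of other distal peaks and 91.4% of all IDR peaks. A further 18 were found in 2 replicates, 4 in 1 and 1 in none. By class the share was 98.0% in 5' UTRs, 94.4% in noncoding exons, 93.9% in coding sequence and 90.6% in 3' UTRs. Over the 358 members found in all 3, log2 signal values correlated between replicates with a Pearson r of 0.876, 0.915 and 0.874 and a Spearman rho of 0.802, 0.862 and 0.787, for replicates 1 and 2, 1 and 3, and 2 and 3. These are descriptions over peaks that share a library and a control, not tests.

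Genes of 11 lists were then read against all genes, of which 321 of the 14725 with exonic bases more than 500 bp from a TSS (2.18%) held a member. The Hippo pathway list had 3 of 22, ex, wts and Rassf, an antagonist of the Hippo kinase. The list of described Yorkie and Scalloped targets had 5 of 19, namely ex, the cell cycle genes CycE and E2f1, the insulin receptor gene InR, and vn, a ligand of the EGF receptor. Per Mb of distal exonic bases these lists held 30.1 and 61.3 members, against 14.4 over all genes. Apart from ex and wts their members lay near or below the median. E2f1 had 0.994, 0.570 and 1.10 times the median in replicates 1, 2 and 3, CycE 0.872, 0.688 and 0.828, InR 0.789, 0.826 and 0.643, Rassf 0.696, 0.560 and 0.678, and vn 0.520, 0.502 and 0.663. Long genes with many transcripts have more bases to hold a summit, and that part of these shares was not tested. The 11 lists were also chosen with earlier results of these data known, and ex counts in both lists above. The shares and densities of all the lists are therefore descriptions, not tests.

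EGF receptor signalling had 4 of 19 genes, with vn joined by S, which moves the ligand Spitz through the cell, the feedback inhibitor sty and the kinase Raf. Raf had 1.89, 1.87 and 1.68 times the median in replicates 1, 2 and 3, S had 1.39, 1.72 and 1.39, and sty had 0.801, 1.00 and 1.10. Polarity and junction genes had 3 of 17, with baz, the fly Par-3, and pyd, the fly ZO-1, at 0.614 to 0.957 times the median next to scrib. Muscle genes had 2 of 20, Mef2 in its 5' UTR at 1.02, 1.11 and 1.16 and sls, the fly titin, in a 3' UTR at 0.923, 0.895 and 1.42. Per Mb of distal exonic bases the EGF receptor list held 54.1 members, the polarity list 25.8 and the muscle list 9.11, the last below the 14.4 of all genes. Dpp signalling had shn, Notch signalling had H and the RNA-binding regulators had msi, with 1 gene of 14, 10 and 15, or 39.3, 22.0 and 7.70 members per Mb. No member fell in the 15 Wingless genes, which allows a share of up to 20.0%, in the 8 Hox genes (up to 37.5%) or in the 72 cytoplasmic ribosomal protein genes (up to 4.17%). Each limit is 3 counts divided by the number of genes. It is an approximate bound, not a Clopper-Pearson limit, and covers counting error only. The ribosomal protein genes together had 0.0344 Mb of distal exonic bases.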

How the data were processed

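Peak lists on dm6 were deposited for each of the 3 replicates, for the pooled replicates and after IDR thresholding, each set against 1 control alignment, per the file headers. The aligner, the caller, the IDR threshold and the reason each replicate list held 30000 peaks are not given in the sources used here. The deposited signal value of a peak has a scale of its own in each list and was used only within a list. The deposited −log10 q value was at its ceiling of 4.38 for the IDR peaks and did not rank them. Read depth is unknown. Embryo chromatin had been sonicated to 200 to 800 bp, per the labels.

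Summits were taken from the lists, 1-based, and classed on Ensembl release 115 with 5' UTR taking precedence over coding sequence, then over 3' UTR and the exons left. Densities used the bases of each class more than 500 bp from a TSS. Replicates were compared on their 10553 strongest peaks, with summits matched within 100 bp. Motifs were searched within 100 bp of summits, in RefSeq's Release 6 sequence. Flanks within 500 bp of another IDR summit were left out. Differences over replicates were tested by exact sign-flip permutation, and shares carry 95% Clopper-Pearson intervals, which treat neighbouring peaks as independent and cover counting error only. Genes named are the hosts of the 8 strongest members of each class, genes with 3 or more members, and listed genes with a member. Nrg and CG44838 are shown for their sites, and neighbouring or overlapping genes as context. The members and the lists were chosen with earlier results of these data known. Of the listed symbols, 4 had no match in the annotation and were not analysed here. The procedures were tested on simulated data. The work used scipy 1.17.1 for intervals, numpy 2.4.6 and pandas 2.3.3 for tables and matplotlib 3.10.9 for figures, under Python 3.11.15. Alternatives changed the TSS distance, the exon set, the depth inside the exon, the peak list, the motif, the motif window, the matching distance, the class order and the replicates used.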

Additional observations from a re-analysis of the deposited data

How the results depend on the processing

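Of 111 alternative values, 71 stayed close to the reported one, 37 moved and 3 changed sign. The density of exonic summits relative to the other distal bases kept its direction under all alternatives run. With a TSS distance of 250 bp, members made up 5.52% of IDR peaks, 223 of them in 5' UTRs and 167 in noncoding exons, and 36.2% were intronic in another transcript. With 1000 bp these were 2.05%, 35, 51 and 27.8%, coding members numbered 20 and the median signal was 0.939 times the IDR median. With exons of protein-coding genes only, which leaves 0 noncoding members by construction, the share was 2.60%, CATTCC was at 20.1%, the median signal was 0.960 and 31.4% were intronic elsewhere. With summits at least 50 bp inside the exon the share was 3.08%, the median signal 1.00 and coding members 21. Above the median IDR signal there were 54 members in 5' UTRs, 9 in coding sequence, 63 in 3' UTRs and 57 in noncoding exons. There CATTCC was at 25.7% of members. The mean difference from the other distal summits over the replicates was 0.409 percentage points, against -1.47 as reported, and the replicates did not share a sign. The median signal was 0.946, 96.7% were found in all 3 replicates and 37.2% were intronic elsewhere. With the strongest summit per interval CATTCC was at 22.5%. Leaving out 1 replicate at a time gave a median signal of 0.969 to 0.973 times the IDR median and 33.4% to 33.9% intronic in another transcript.

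With windows of 50 and 200 bp CATTCC was at 15.7% and 27.0%. The longer site was at 11.8% and the CTACTC control at 4.20% of members in the IDR list. Their mean differences from the other distal summits over the replicates were 0.639 and 0.764 percentage points, where CATTCC had -1.47. Matching within 50 bp, within 200 bp or among the strongest peaks of each replicate only put 69.8%, 96.3% and 67.7% of members in all 3. The cause of these changes was not tested. With 1 group no samples could be paired across groups, and the sign-flip tests compare classes of peaks within each replicate. Unknown depth limits what weaker peaks can show, and with 33 coding members shares carry wide intervals.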
